A study of Mus musculus with 80 samples.

Results

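The sites described are the 450 reporter integrations on mouse chromosome 17, of 10785 integrations in the whole table. They were selected on measured DNA: all rows of chromosome 17 from the 4 cell pools with 10 or more counts in every one of the 8 genomic DNA libraries per pool. The chromosome itself was put forward for its measured RNA levels at the top dose and without dox. Pools A, B, C and D held 87, 87, 131 and 145 of them. All groups were EBRTcH3 cells, mouse embryonic stem cells in which the endogenous ROSA26 promoter drives tTA, the tetracycline-controlled transactivator. They were kept with leukemia inhibitory factor and inhibitors of MEK and GSK-3, and all carried a barcoded tet-Off reporter delivered by piggyBac transposition. The labels also mention a mouse PGK promoter in the growth and treatment text, and that conflict with the tet-Off titles was not resolved. Each pool had been grown from sorted cells with low eGFP and divided into 2 cultures, which the labels call technical replicates. Each culture received doxycycline (dox) at 0, 0.01, 0.1 or 100 ng/ml for 72 h, and RNA and DNA barcodes were counted. Because both cultures came from 1 pool, p-values measure the spread between such cultures and libraries only. Cells of many clones are pooled, so fewer cells of a clone that express and less RNA per cell cannot be told apart.

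Under tet-Off control, tTA sits on operators in the reporter and switches it on until dox releases it. TRIP, the assay used here, places the same reporter at many positions in parallel and reads each position by its own barcode, so that differences between barcodes report on the place of integration. PiggyBac inserts at TTAA sequences. Mouse chromosome 17 carries the major histocompatibility complex (H2) and the t-complex region. The genes at the integrations were not analysed here, because the positions are in mm9 and the gene table at hand is of another build.

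Each site is known by the barcode in its reporter. The 10 sites highest at dox 100 with RNA in both libraries are shown first, as the top of the range described here. The remaining 2 sites of a cluster near 81.2 Mb, a pair 11 bp apart that was unlike at dox 100, and the site with least RNA follow. Barcodes are in lower case, in the orientation of the deposited table, whose strand relative to the transcript is not stated there; position, strand and pool stand in the name.
pool A at 37120992 (plus): gaacgctatcattgac
pool D at 71194964 (plus): gggagaactcactcag
pool D at 71184629 (plus): caggcgggaagtatat
pool C at 45737228 (minus): tatagtttcatcggcg
pool C at 31924927 (plus): tgattaaactcagtca
pool C at 81202747 (minus): acgaaagactaccact
pool A at 81202701 (minus): cagtgtcgcagcgaat
pool A at 35636513 (plus): gcttgttccctttccg
pool D at 10626618 (minus): agcgtacatagtatga
pool C at 26613954 (plus): aaccgctttctagaat
pool B at 81197255 (plus): aagtccgggcctttga
pool C at 81198475 (plus): gtcataaagcaatacc
pool D at 7443559 (plus): cgactgatagattact
pool B at 7443570 (minus): tttagaaatcttatgg
pool C at 10643091 (minus): agctaactgaccacac
All 15 are 16 bases long, as are 440 of the 450; the others have 15 to 17. For 30 of the 450 the same barcode is also listed in another pool, and the barcode at 10643091 is one of these.

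Total counts per library lay between 729552 and 1840870 for RNA and between 928128 and 1571280 for DNA. No molecular identifiers mark the PCR reads. Intervals on shares of sites cover the sampling of sites only, not PCR copies or the spread between cultures and libraries. The level of a site is the log2 of its RNA share over its DNA share, with 1 added to each count, averaged over the 2 cultures and given relative to the mean of all sites of its pool, so that 0 is the pool mean at that dose. Cultures agreed over the 450 sites with a Pearson r of 0.919 at dox 0, 0.920 at 0.01, 0.821 at 0.1 and 0.772 at 100 ng/ml, values that describe sites sharing libraries. The DNA of the sites did not pass the edgeR test at dox 100 against 0 (0 of 450 higher, 0 lower; background 0% and 0%; unadjusted p under 0.05 in 20), and no other tool was run on it.

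RNA levels along chromosome 17 formed alternating high and low stretches at every dose. Without dox, sites in the 5 Mb windows at 25 to 30, 45 to 50 and 70 to 75 Mb were high, with means of 1.74, 1.71 and 1.19 over 34, 40 and 22 sites. Sites at 90 to 95, 55 to 60 and 75 to 80 Mb were low, with means of −1.60, −1.28 and −1.26 over 12, 17 and 21 sites. Most windows kept their side of the pool mean with dose, and most moved farther from it. Of the 19 windows, 15 lay on the same side of the pool mean at dox 100 and at dox 0, and 15 lay farther from it at dox 100. Among those that changed side was the window at 15 to 20 Mb, with means of −0.51 at dox 0 and 1.71 at dox 100. Its sites averaged below the pool mean in every pool at dox 0 and above it in every pool at dox 100. The Pearson r between window means at the 2 doses was 0.841 over 19 windows, which share libraries.

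**Figure D1:**
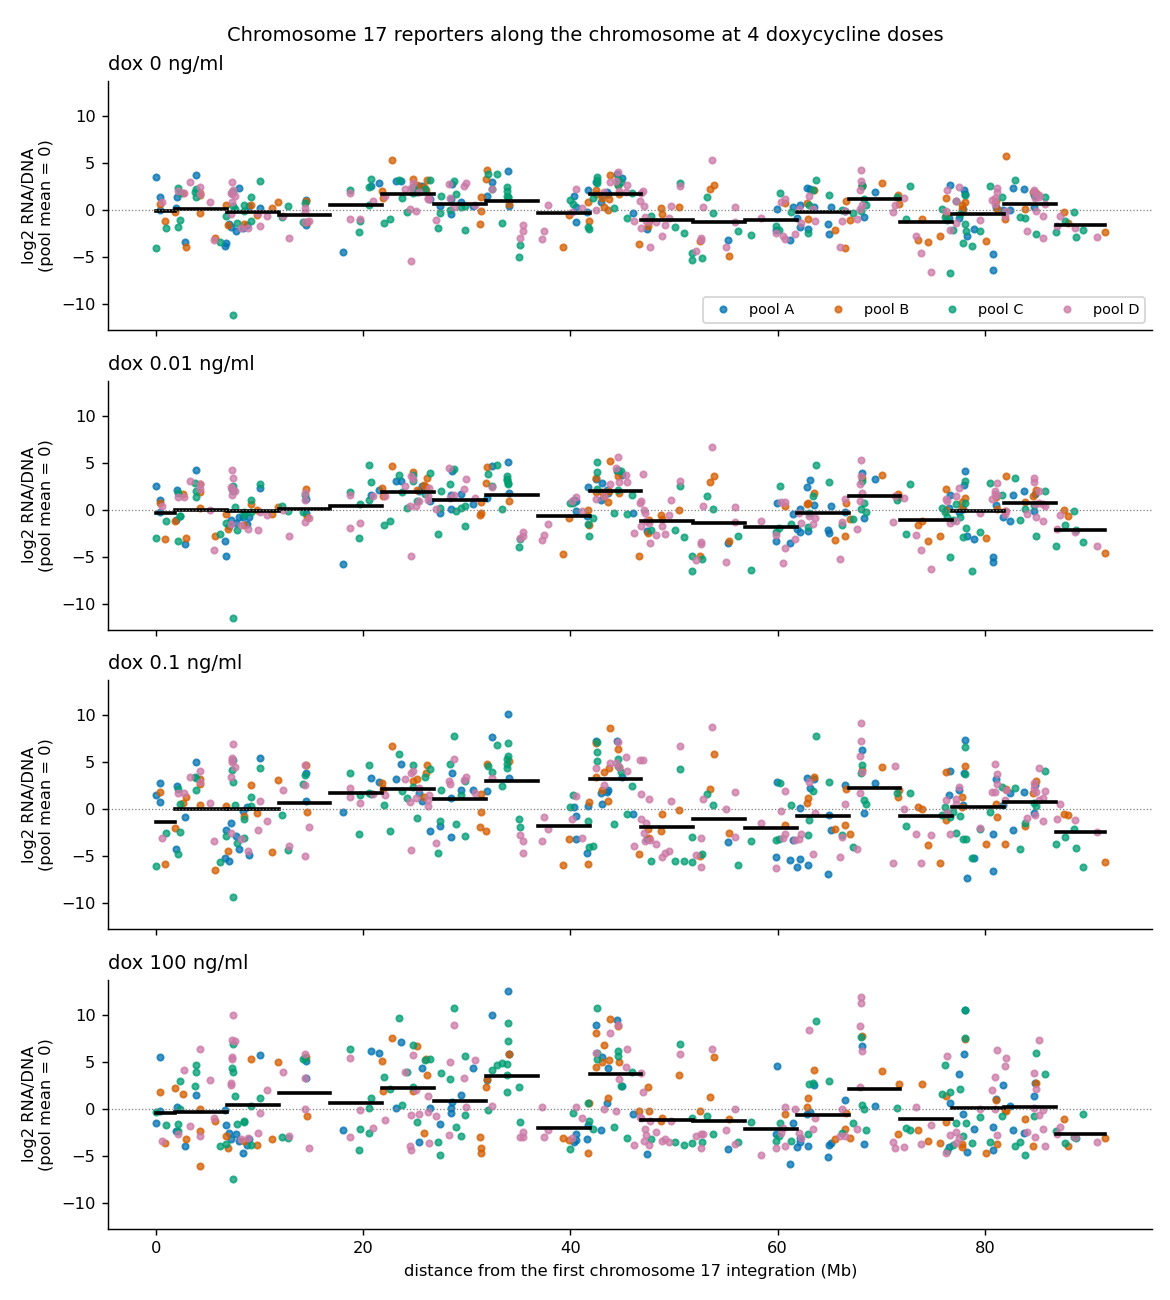
Levels of the 450 chromosome 17 sites (y axis, log2 RNA/DNA relative to the pool mean) against distance from the first site in Mb (x axis), 1 panel per dox dose; points are sites coloured by pool and black bars are means of 5 Mb windows. The spread widens with dose, and the windows with means of 3.46 and 3.76 at dox 100 stand above the others.

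The same widening held for single sites. The SD over the 450 sites was 2.23 at dox 0, 2.54 at 0.01, 3.57 at 0.1 and 4.02 at 100 ng/ml, and that over the 10335 sites elsewhere was 2.04, 2.36, 3.41 and 3.70 at the same doses. The median and the upper quartile went up together over the first 3 doses and parted at 100 ng/ml. The median site stood at 0.39, 0.45, 0.74 and −0.48 from low to high dose, and the upper quartile at 1.89, 2.03, 3.07 and 3.62. Pearson r between a site's level at 2 doses was 0.934 for 0.01 and 0, 0.744 for 0.1 and 0, and 0.533 for 100 and 0 (n = 450 sites of shared libraries); over the sites elsewhere the last was 0.444.

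At dox 100 the 2 highest windows were those at 45 to 50 and 35 to 40 Mb. The first averaged 3.76 ± 3.97 at dox 100 and 1.71 at dox 0 (SD over 40 sites). Its pool means at dox 100 were 3.57, 5.41, 3.30 and 2.91 in A to D, all above 0, and 36 of 40 sites gave RNA in at least 1 culture. The window at 35 to 40 Mb averaged 3.46 ± 4.13 at dox 100 and 1.01 at dox 0 (SD over 22 sites), with pool means of 7.85, 3.82, 3.75 and −2.01, so that pool D stood below its mean. Between them lay a low window. At 40 to 45 Mb the 19 sites averaged −2.05 at dox 100 and −0.32 at dox 0, below 0 in all 4 pools at dox 100, and 1 site had RNA in both dox 100 libraries. The far end was the lowest window: the 12 sites at 90 to 95 Mb averaged −2.63 at dox 100 and −1.60 at dox 0, and 0 of them had RNA in both dox 100 libraries. Where a site has no RNA its value is set by its DNA count and the added 1, so the low values at dox 100 are limits of depth. Of the 17 windows with sites of all 4 pools, 3 were above the mean in every pool at dox 100 (15 to 20, 45 to 50 and 70 to 75 Mb) and 3 were below it (40 to 45, 60 to 65 and 75 to 80 Mb).

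In blocks of 1 Mb the high stretches were narrower. Among the 34 blocks with at least 6 sites, the highest at dox 100 was that ending at 38000000, with 8 sites from pools A, B and C at a mean of 6.36 at dox 100 and 1.78 at dox 0. The blocks ending at 46000000, 48000000 and 72000000 followed with means of 5.91, 4.76 and 4.74 over 8, 10 and 12 sites of all 4 pools. The block ending at 44000000 had a mean of −2.54 at dox 100 and 0.49 at dox 0 over 8 sites, with 0 sites called higher and 6 called lower, and it lies 1 Mb before the high block ending at 46000000. The lowest block, ending at 12000000, averaged −3.03 at dox 100 and −0.55 at dox 0 over 7 sites.

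Taken as a whole and with the DNA minimum of 10, chromosome 17 stood above the rest of its pools at each dose, by an amount that grew on average and not in every pool. Chromosome 17 was put forward for its levels at dox 100 and 0. The difference of its offsets at these doses is therefore a description with no test. The edgeR values of single sites in that contrast come from the fit over all 10785 sites. For sites picked by their level or change at dox 100 they describe those sites and test nothing further. The difference between the mean of its sites and the mean of all other sites was 0.36, 0.35, 0.08 and 0.08 in pools A to D at dox 0, and 0.35, 0.41, 0.15 and 0.16 at 0.01 ng/ml. It was 0.37, 0.60, 0.45 and 0.55 at 0.1 ng/ml, and 0.32, 0.62, 0.75 and 0.30 at 100 ng/ml. The means over pools were 0.21 ± 0.16, 0.27 ± 0.13, 0.49 ± 0.10 and 0.50 ± 0.22 from low to high dose (SD, n = 4 pools). At 0.01 and at 0.1 ng/ml all 4 pools were above 0. An exact two-sided sign-flip permutation test over the pools then gives a p that rounds to 0.12, the smallest it can give with 4 pools. Levels of the 450 sites at 0.01 ng/ml had a Pearson r of 0.934 with those at dox 0. Those at 0.1 ng/ml had 0.751 with those at dox 100. The chromosome was put forward by its levels at dox 0 and 100, so nothing is read from this p. With a DNA minimum of 100 counts pool C stood below 0 at the lower doses, at −0.381 for dox 0, −0.297 for 0.01 and −0.062 for 0.1 ng/ml, and at 0.340 for 100 ng/ml. The means were then 0.11 ± 0.33, 0.19 ± 0.32, 0.34 ± 0.33 and 0.38 ± 0.06 from low to high dose. Among 20 chromosomes the difference, with the minimum of 10, ranked 5, 4, 3 and 2 from low to high dose, with chromosome 11 highest each time. In units of the SD between sites of a pool it was 0.104, 0.114, 0.144 and 0.135, a smaller growth, beside the wider spread of all sites.

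The growth between dox 0 and dox 100 differed between pools. Dox 100 minus dox 0 was −0.032 in A, 0.271 in B, 0.670 in C and 0.227 in D, with a mean of 0.284 ± 0.290 (SD, n = 4 pools), a mean no larger than its spread. By culture, pool C gave 0.668 and 0.672, pool D 0.141 and 0.314, pool B −0.026 and 0.569, and pool A −0.259 and 0.195. Pool C gave nearly equal values in its cultures, and in pools A and B the 2 cultures differed in sign.

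**Figure D2:**
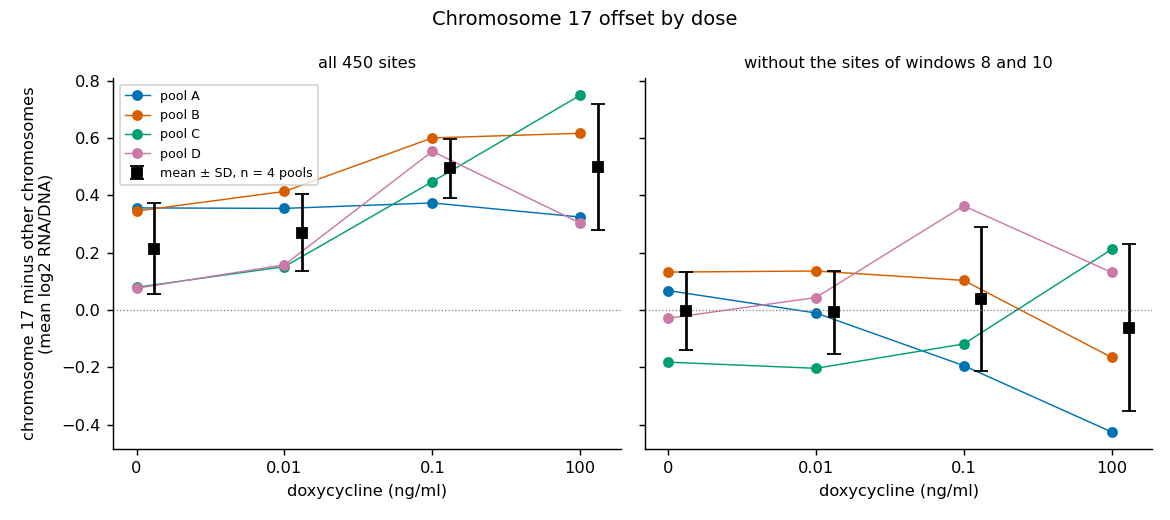
Mean level of chromosome 17 sites minus that of all other sites (y axis, log2 RNA/DNA) by dox dose in ng/ml (x axis, steps not to scale), for all 450 sites (left) and without the sites of windows 8 and 10 (right); coloured points are pools, black squares the mean with SD over 4 pools. With all sites every pool is above 0 at every dose, and without the 62 sites of both windows the means lie between −0.062 and 0.038.

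Leaving out both high windows brought the mean offset near 0 at every dose, though the pools then stood on both sides of 0. The windows have 62 sites (12, 13, 21 and 16 in A to D), 13.8% of the chromosome. Without them the offset over the 4 pools (mean ± SD) was −0.0028 ± 0.137 at dox 0, −0.0087 ± 0.143 at 0.01, 0.038 ± 0.251 at 0.1 and −0.062 ± 0.292 at 100 ng/ml. By pool A to D the offsets without them were −0.426, −0.165, 0.211 and 0.131 at dox 100 and 0.068, 0.132, −0.182 and −0.029 at dox 0, so the offset was still higher at dox 100 than at dox 0 in pools C and D and was lower in A and B. The windows were picked after their values were seen, and leaving out high sites must lower a mean. Without the window at 45 to 50 Mb alone the offset was 0.147 at dox 100 and 0.067 at dox 0. The 62 sites averaged 3.81 ± 1.59 at dox 100 and 1.51 ± 0.50 at dox 0, against −0.083 ± 0.287 and −0.011 ± 0.132 for the other 388 at the same doses (SD, n = 4 pools). RNA was seen at dox 100 in 54 of the 62 (87.1%) and in 201 of the other 388 (51.8%).

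**Figure D3:**
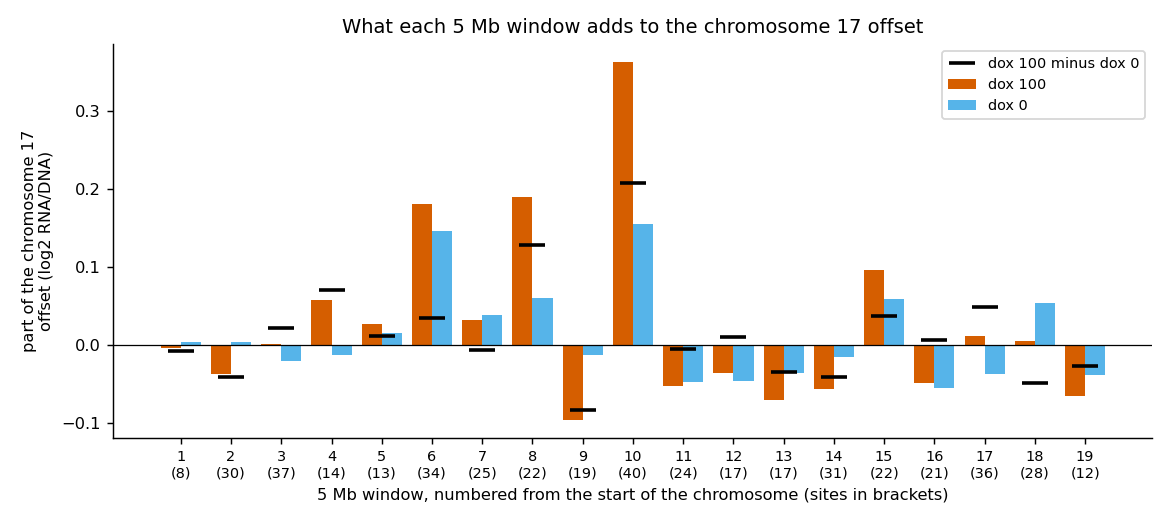
Part of the chromosome 17 offset (y axis, log2 RNA/DNA) that comes from each of 19 windows of 5 Mb (x axis, numbered from the start of the chromosome, sites in brackets); orange bars are dox 100, blue bars dox 0, black marks dox 100 minus dox 0. Window 10 (45 to 50 Mb) has the tallest mark at 0.207 and window 9 (40 to 45 Mb) the lowest at −0.083.

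Each site's share of the offset is its distance from the mean elsewhere, divided by the number of sites of its pool and by 4. On that scale the window at 45 to 50 Mb added 0.207 of the 0.284 by which the offset at dox 100 exceeded that at dox 0. The window at 35 to 40 Mb added 0.128, that at 15 to 20 Mb 0.071 and that at 80 to 85 Mb 0.049. Taken away by windows such as 40 to 45 Mb (−0.083), 85 to 90 Mb (−0.049) and 5 to 10 Mb (−0.041) was a sum of −0.293 against a sum of 0.578 added, so the gap is a balance of opposing stretches. Over single sites, 221 added 1.55 in all and 229 took away −1.26. Adding does not require RNA, because each share is taken relative to the mean elsewhere at that dose. The sites at 83913285 in pool A and 77990098 in pool D had 0 RNA counts at every dose, yet added 0.0128 and 0.0084. The site at 6034831 in pool B, with 0 and 0 RNA counts at dox 100, added 0.0020. The 10 sites that added most gave 0.192.

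Those 10 sites lay in 3 places. Near 81.2 Mb were the pool A site at 81202701 (0.0250), the pool B site at 81197255 (0.0189), and the pool C sites at 81198475 (0.0173) and 81202747 (0.0170). At 35 to 40 Mb were the pool A sites at 37120992 (0.0241) and 35636513 (0.0198). At 45 to 50 Mb were the pool B sites at 46371038 (0.0186), 47706288 (0.0176) and 45591350 (0.0171) and the pool A site at 45590936 (0.0168). A site of pool A or B weighs more here than one of C or D, because those pools have fewer sites on the chromosome.

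The highest site of the chromosome at dox 100 was that of pool A at 37120992 (plus strand). RNA counts reached 19480 and 22678 at dox 100, against 1497 and 1223 at dox 0, beside 214 and 99 DNA counts at dox 100 and 203 and 75 at dox 0. Its level was 12.56 ± 0.98 at dox 100 and 4.17 at dox 0 (SD of 2 cultures), above the mean of its pool at both doses. The edgeR change relative to the scaling was 5.35 ± 0.68 on the log2 scale; throughout, the error of an edgeR change is its absolute value over the square root of its F statistic, not an SE from the fit. Scaling removes any fall that all sites share, so higher or lower means relative to the sites that set the scaling.

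The next highest were a pair of pool D sites 10.3 kb apart. The site at 71194964 reached 11973 and 10212 RNA counts at dox 100, against 1297 and 1135 at dox 0, a change of 4.89 ± 0.76. At 71184629 they were 2899 and 2921 at dox 100 and 253 and 282 at dox 0 (5.50 ± 1.23). DNA counts at 71184629 were low, 51 and 25 at dox 100 and 21 and 69 at dox 0. Both sites had levels over 11 at dox 100, and in both the RNA counts of the doses did not overlap. They were picked by those levels, so this is a description.

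The remaining 7 of the top 10 were picked by the same dox 100 levels, so their changes are given as a description. At 45737228 in pool C, dox 100 gave 1984 and 1830 RNA counts, against 293 and 419 at dox 0, on 24 to 53 DNA counts in these 4 libraries (log2 change 4.43 ± 0.75). At 31924927 in pool C they were 12856 and 11827 at dox 100 and 1167 and 1272 at dox 0 (4.75 ± 0.36). In pool A the site at 35636513 had 7501 and 10171 at dox 100 and 2048 and 2335 at dox 0 (3.84 ± 0.42). Each of these has RNA counts at dox 100 that exceed every dox 0 count. Pool D at 10626618 reached 10041 and 11921 RNA counts at dox 100, against 1529 and 1532 at dox 0 (4.96 ± 0.58). The tenth, at 26613954 in pool C, had 1155 and 1957 at dox 100 and 929 and 1013 at dox 0 (3.24 ± 0.89); its DNA counts at dox 100 were 126 and 23, its level had an SD of 2.66, and without dox 0 replicate 1 its edgeR call was lost (adjusted p = 0.0717). Its fold change was the smallest of the 10.

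A few sites took most of the chromosome's RNA at the top dose. As mean ± SD over the 4 pools, the 5 sites with most RNA held 33.5% ± 3.79 of chromosome 17 RNA counts at dox 0, 35.9% ± 4.42 at 0.01, 55.1% ± 12.2 at 0.1 and 67.2% ± 12.7 at 100 ng/ml. Chromosome 17 as a whole held 5.14% ± 0.765, 5.21% ± 0.826, 4.86% ± 0.603 and 5.31% ± 1.69 of all RNA counts from low to high dose, beside 4.28% to 4.30% of DNA counts. In pool A this share was 6.10% and 6.56% at dox 100 and 4.87% in both cultures at dox 0, whereas in pool B it was 3.03% and 2.88% at dox 100 and 4.49% and 4.34% at dox 0. Pool C had 6.91% and 6.53% at dox 100 and 5.06% in both cultures at dox 0, and pool D 5.13% and 5.38% at dox 100 and 6.24% and 6.18% at dox 0. The share was thus higher at dox 100 in pools A and C and lower in B and D. The direction of the mean rests on 1 site per library: without the site with most RNA the chromosome held 3.67% ± 0.827 at dox 100 and 4.61% ± 0.725 at dox 0 (SD, n = 4 pools). In pool A that left 3.81% and 4.24% at dox 100, against 4.08% and 4.14% at dox 0, and in pool C 3.83% and 3.96% at dox 100, against 4.68% and 4.71% at dox 0.

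More chromosome 17 sites kept some RNA at dox 100 than sites elsewhere, with overlapping intervals. The chromosome was put forward for its RNA levels at that dose and without dox, so nothing is read from this difference. The intervals treat sites as independent, although sites of a pool share libraries. RNA was counted in at least 1 dox 100 library for 255 of 450 (56.7%, Wilson 95% interval 52.1 to 61.2), against 5315 of 10335 elsewhere (51.4%, 50.5 to 52.4). By pool A to D the shares were 59.8%, 56.3%, 58.0% and 53.8% on chromosome 17 and 52.6%, 54.6%, 49.7% and 50.0% elsewhere. RNA was in both dox 100 libraries for 163 of 450 (36.2%) and 3146 of 10335 (30.4%). At 0.1 ng/ml RNA was seen in at least 1 library for 84.7% on chromosome 17 and 81.4% elsewhere, and at dox 0 for 99.6% and 99.7%. Among sites with RNA in both dox 100 libraries the offset was 0.20 ± 0.11 (SD, n = 4 pools). With RNA in both libraries of the dose it was 0.19 ± 0.18 at dox 0, 0.28 ± 0.07 at 0.01 and 0.42 ± 0.24 at 0.1 ng/ml. In this setting the mean at dox 100 thus lay close to that at dox 0, over sites that differ between doses.

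By the dose at which RNA was last counted, 248 sites (55.1%) had RNA at 0.1 and at 100 ng/ml, against 49.1% of sites elsewhere. RNA at 0.1 but in neither dox 100 library was the pattern of 133 sites (29.6%), against 32.3%. In 62 sites (13.8%, against 16.3% elsewhere) there was none at 0.1 or at 100, and in 7 (1.56%, against 2.33%) there was none at 0.1 and some at 100. These patterns also use RNA at dox 100, so nothing is read from their differences to sites elsewhere. Sites with RNA at dox 100 were those with higher medians at dox 0, and they also had more DNA counts. The median level at dox 0 was 1.69 for the 163 with RNA in both dox 100 libraries, 0.61 for the 92 with RNA in 1 and −0.95 for the 195 with none. The median DNA count at dox 100 was 390, 325 and 274 in the same order, and the part of depth in whether RNA was seen was not tested.

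In the test of dox 100 against 0, 55 of the 450 sites were higher (12.2%) and 217 lower (48.2%), where 10.9% and 50.4% of all 10785 sites were called. This contrast was used to put the chromosome forward, so nothing is read from these shares. The higher calls numbered 7, 11, 18 and 19 in pools A to D, and all 55 had RNA in both dox 100 libraries. The median log2 change was −2.98 on chromosome 17 and −4.12 over all sites, and with library totals and RNA of 0 set to a floor of 3 counts over both libraries it was −3.31 and −3.52. With library totals as the scaling 35 were higher and 265 lower, and 3 of the higher calls turned in sign: those at 48570757 and 84317905 in pool D and 71273423 in pool A, with changes of 0.80, 1.08 and 0.86 that became −0.72, −0.44 and −0.42. The median of all sites was −5.15 under that scaling. Of the 55 higher calls, 19 (34.5%) lay in the windows at 35 to 40 and 45 to 50 Mb, as did 17 of the 217 lower calls (7.83%). These windows hold 13.8% of the sites. They were picked for their high levels at dox 100, so nothing is read from these shares. With library totals the counts in both windows were 12 higher and 27 lower.

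The 5 largest increases with RNA in both dox 100 libraries were 3 sites near 81.2 Mb, taken up with their chain, and those at 88120077 in pool C and 31932980 in pool D. The site at 88120077 gave 263 and 274 RNA counts at dox 100, against 12 and 24 at dox 0 (5.79 ± 0.92, edgeR adjusted p = 0.000247). That at 31932980 gave 1992 and 2813 at dox 100, against 231 and 247 at dox 0 (5.74 ± 0.50, adjusted p = 4.45e-06), and it lies 8.05 kb from the pool C site at 31924927, another of the top 10. In both sites the counts of the doses did not overlap, which is a description, since they were picked as the largest increases.

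Large falls came from sites with no RNA left. Of the 217 lower calls, 176 had 0 RNA counts in both dox 100 libraries, and these were at least 2.89-fold to at least 1368-fold lower by read counts, with a median bound of 58.8-fold, against a floor of 3 counts over both libraries. These bounds use library totals, whereas calls and p-values use TMM, and the median change of all sites is lower by 1.02 on the log2 scale with library totals. The largest bound belonged to the pool C site at 86015270 (plus strand), with 0 and 0 RNA counts at dox 100, against 3877 and 4152 at dox 0, at least 1368-fold lower (edgeR adjusted p = 1.88e-06). No RNA was counted at 28509788 in pool A either, with 0 and 0 at dox 100, against 1780 and 2178 at dox 0 (at least 858-fold lower, adjusted p = 2.71e-05). In pool B, the site at 85189153 had been the highest of the chromosome without dox. There were 0 and 0 RNA counts at dox 100, against 716 and 1026 at dox 0, on 27 and 81 DNA counts at dox 100 and 20 and 28 at dox 0, at least 751-fold lower (adjusted p = 8.77e-05). The other 2 of the 5 largest were at 83623551 in pool C (at least 690-fold) and 87814182 in pool B (at least 575-fold). Of these 5 sites, 3 lay between 85 and 90 Mb, a window with 4 higher and 15 lower calls among 28 sites, near the 10.9% and 50.4% over all sites.

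The order of sites without dox did not fix their order with it. The 5 highest at dox 0 were at 85189153 (pool B, 5.83), 56813517 (pool D, 5.39), 25969465 (pool B, 5.35), 35148757 (pool B, 4.33) and 71194964 (pool D, 4.30). At dox 100 their levels were −0.21, 6.43, 7.59, 3.24 and 11.89 in the same order. Only the site at 71194964 was called higher at dox 100. The site at 35148757 fell to 72 and 320 RNA counts at dox 100, against 6120 and 6904 at dox 0 (−3.42 ± 0.58, edgeR adjusted p = 0.000468), and those at 25969465 (−0.30 ± 0.76, adjusted p = 0.759) and 56813517 (−2.01 ± 0.97, adjusted p = 0.0916) did not pass the test.

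At the other end, the pool C site at 10643091 (minus strand) gave almost no RNA beside some of the largest DNA counts. RNA was counted 1 time in each dox 0 library and 0 times in all 6 libraries of the other doses, on 4960 to 6351 DNA counts in its 8 DNA libraries. Its level of −11.10 at dox 0 is limited by depth. Its barcode was read 16.5 kb from the pool D site at 10626618, one of the top 10 at dox 100. Of the 5 lowest, 2 more, at 77990098 in pool D and 83913285 in pool A, had 0 RNA counts at every dose. The pool D site at 27730019 had 0 and 0 RNA counts at dox 100, against 17 and 13 at dox 0, at least 6.23-fold lower (edgeR adjusted p = 0.0437). That call was lost with the replicate block and without any 1 of the 4 replicates at these doses. The last of the 5 went up instead: the pool C site at 79739723 had 111 and 65 RNA counts at dox 100, against 1 and 10 at dox 0 (5.44 ± 0.97, adjusted p = 0.000545).

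Many sites had already changed at 0.1 ng/ml. Against dox 0, 44 were higher (9.78%) and 72 lower (16%), where 9.04% and 19.8% of all sites were called. The higher share is close to the background. Scaling decided the balance: 37.9% of the calls on chromosome 17 were higher with TMM, 20.0% with DESeq2 size factors (30 higher, 120 lower) and 15.9% with library totals (26 higher, 138 lower). The median log2 change was −0.40 on chromosome 17 and −0.80 over all sites, and −1.58 and −1.96 with library totals. Without dox 0.1 replicate 1, lower calls numbered 112 in place of 72, and without dox 0 replicate 1 or 2 they numbered 45. The 100 and 0.1 ng/ml contrasts share the dox 0 libraries, and 33 sites were called higher in both, 60% of the list at 100 and 75% of that at 0.1 ng/ml.

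The largest increase at 0.1 ng/ml was again at 37120992 in pool A, with 16499 and 16177 RNA counts at 0.1 ng/ml, against 1497 and 1223 at dox 0 (4.65, edgeR adjusted p = 0.000579). The pool C site at 37106934, 14.1 kb away, had 1093 and 737 at 0.1 ng/ml, against 176 and 204 at dox 0 (4.16, adjusted p = 0.00635; lost without either dox 0 replicate, up to 0.0657). Another of the 5 largest increases was at a site with no RNA at the top dose, whose level at 0.1 ng/ml was 1.33. RNA counts of the pool B site at 6034831 were 17 and 20 without dox, 17 and 25 at 0.01, 42 and 72 at 0.1 and 0 and 0 at 100 ng/ml, a change of 4.28 at 0.1 against 0 (adjusted p = 0.00135). The pool C sites at 79739723 and 81198475 completed the 5, at 4.26 and 4.15 (adjusted p = 0.00604 and 0.00363); the site at 81198475 lost its call without dox 0 replicate 1 (adjusted p = 0.0633).

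Among the 72 sites lower at 0.1 ng/ml, 50 had no RNA in either library of that dose. At 11215824 in pool A there were 0 and 0 RNA counts at 0.1 ng/ml, against 306 and 348 at dox 0, at least 299-fold lower (edgeR adjusted p = 0.00257). The pool A site at 65048964 had 0 and 0 against 182 and 223 (at least 165-fold, adjusted p = 7.41e-05). In pool A the site at 31661919 was at least 151-fold lower and that at 12179609 at least 127-fold lower, and in pool D the site at 74319945 was at least 146-fold lower. The site at 31661919 lost its call without dox 0 replicate 1 or 2 or dox 0.1 replicate 2 (adjusted p up to 0.0998). All 5 had 0 RNA counts at 100 ng/ml as well.

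At the lowest dose almost no site passed a test, which with 2 cultures per dose does not show that sites did not move. At 0.01 ng/ml against 0, edgeR called 0 of 450 (background 0% higher and 0% lower), with an unadjusted p under 0.05 in 28, 20 of them higher, and the DESeq2 Wald test called 4. The median log2 change was −0.08 on chromosome 17 and −0.12 over all sites. The pool A site at 81202701 came nearest, with 3848 and 3829 RNA counts at 0.01 ng/ml, against 1723 and 2273 at dox 0 (2.13 ± 0.28, edgeR adjusted p = 0.0573 over all pools), and it passed when p-values were adjusted within pool A alone.

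Between 0.1 and 100 ng/ml the falls went on. At 100 against 0.1, 23 sites were higher (5.11%) and 122 lower (27.1%), where 4.88% and 28.2% of all sites were called, so both shares are near the background. The count of higher sites depended on single replicates: it fell without dox 0.1 replicate 2, without dox 100 replicate 1 and without dox 100 replicate 2. The 5 largest of these increases, at 3184728 and 92620107 in pool C, 8822623 and 49800231 in pool B and 17562820 in pool D, had no RNA in either 0.1 ng/ml library and 40 to 113 RNA counts in 1 of the 2 libraries at 100 ng/ml. Each lost its call when the replicate of that dox 100 library was left out or, for those at 17562820 and 49800231, turned in sign (−0.12 and −0.19). All 5 also lost it without either 0.1 ng/ml replicate, and those at 8822623, 17562820 and 49800231 with the replicate block.

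Close neighbours were read in 15 chains, each of at least 4 sites linked by gaps of at most 50 kb. Chains differed in what happened at dox 100 even where their levels at dox 0 were alike. Over all 10785 sites 10.9% were called higher and 50.4% lower at dox 100 against 0. The counts of calls per chain are too small to set against these shares. Chain 13, 4 sites within 5.49 kb near 81.2 Mb from pools A, B and C, had all 4 sites higher at dox 100 than at dox 0 under each scaling. Over the alternatives, which included leaving out 1 replicate of either dose, the lowest log2 change of any of its sites was 2.74. Its mean level was 9.01 at dox 100 and 0.72 at dox 0, the highest of the 15 at dox 100.

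At all 4 sites of chain 13 RNA counts rose from 0.01 to 0.1 and on to 100 ng/ml. From dox 0 to 0.01 they rose at all but the site at 81197255. RNA counts are shares of a library's reads, so a rise does not show that a site made more RNA. At 81202701 (pool A) they were 1723 and 2273 at dox 0, 3848 and 3829 at 0.01, 11886 and 10399 at 0.1, and 28488 and 31434 at 100 ng/ml. At 81202747 (pool C), 46 bp away on the same strand, they were 1030 and 1108, 2134 and 2202, 8306 and 5558, and 28981 and 22405 at the same doses. These are independent integrations in different pools, and their levels at dox 100 were 10.48 and 10.50. At 81198475 (pool C) the counts were 54 and 66 at dox 0, 98 and 81 at 0.01, 240 and 147 at 0.1, and 1242 and 1073 at 100 ng/ml. The fourth, at 81197255 (pool B), had 239 and 249, 259 and 242, 510 and 576, and 844 and 1366. In all 4 sites both dox 100 counts exceed every count at lower doses, a description of the chain that was highest at dox 100. Changes at dox 100 against 0 were 5.61 ± 0.29, 6.06 ± 0.36, 6.11 ± 0.89 and 4.03 ± 0.51 in the same order, and with library totals 4.32, 5.04, 5.09 and 2.74. DNA counts of the site at 81202701 stayed between 414 and 987 in all 8 libraries, without a change at dox 100 against 0 that passed the test (0.0078 ± 0.38, edgeR unadjusted p = 0.984).

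**Figure D4:**
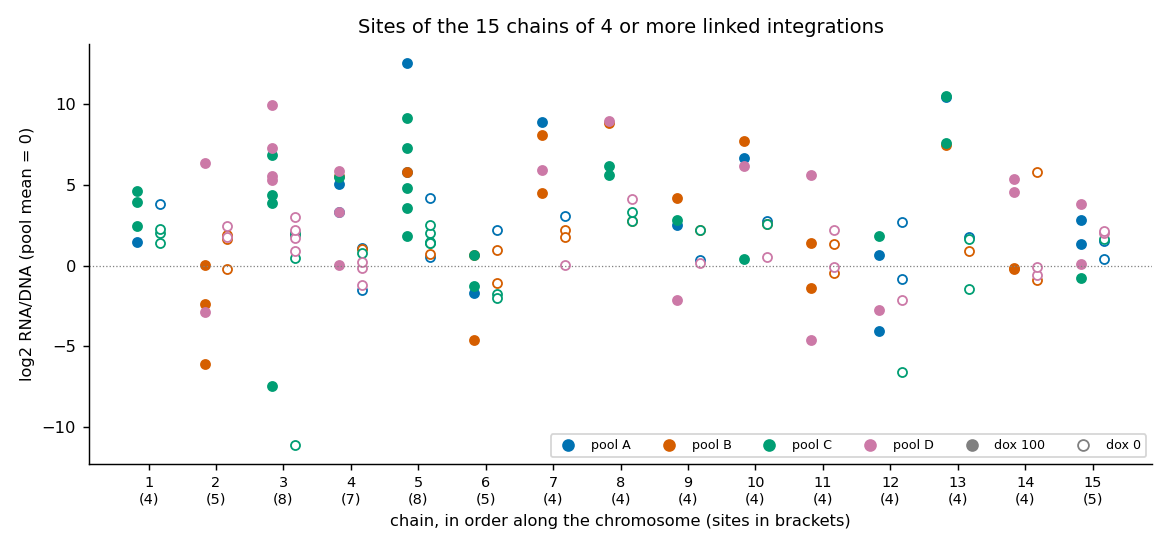
Levels (y axis, log2 RNA/DNA relative to the pool mean) of the sites of 15 chains in order along chromosome 17 (x axis, sites in brackets), coloured by pool; filled points are dox 100 and open points dox 0. Chain 13 has its filled points between 7.47 and 10.50 and its open points between −1.45 and 1.80.

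Chain 5 spans 141 kb from 37060069 and has 8 sites of pools A, B and C with RNA at dox 100 in every one. At dox 100, 5 were higher and 1 lower, and 3 were higher with library totals. Position and call went together with TMM: the 5 higher sites are the last 5, from 37106934 to 37201235, with changes of 4.89, 5.35, 3.03, 2.67 and 2.20. The first 3 sites are all of pool C and the last 5 are of pools A, B and C, so position and pool partly overlap. Of the first 3, the site at 37083674 was lower, with 145 and 150 RNA counts at dox 100, against 811 and 989 at dox 0 (−1.64 ± 0.57, edgeR adjusted p = 0.0256), and those at 37060069 (−1.94 ± 1.66, adjusted p = 0.334) and 37067763 (0.30 ± 1.10, adjusted p = 0.833) did not pass. At dox 0 all 8 had been above their pool mean, by 0.52 to 4.17. The single chromosome 17 row left out by the DNA minimum, in pool C at 37159919, lies inside this chain; it had a lowest DNA count of 5, with RNA at 425 and 153 for dox 100 and 117 and 113 for dox 0.

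Chain 7, near 45.6 Mb, has 3 sites within 616 bp from pools A, D and B, all 3 higher at dox 100. The pool A site at 45590936 gave 4857 and 4775 RNA counts at dox 100, against 1930 and 2191 at dox 0 (2.93 ± 0.45, edgeR adjusted p = 0.000253). At 45591350 (pool B) they were 3968 and 4415 at dox 100 and 2780 and 2785 at dox 0 (3.34 ± 0.36, adjusted p = 2.07e-05), and at 45591552 (pool D) 439 and 190 at dox 100 and 149 and 95 at dox 0 (3.21 ± 0.84, adjusted p = 0.00621). The fourth site, 17.8 kb on at 45609357 in pool B, had 109 and 267 at dox 100 and 654 and 540 at dox 0 (0.21 ± 0.66, adjusted p = 0.808). Raw counts thus went down at the fourth site and up at the 3 others. With library totals 2 of the 4 passed as higher.

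Higher sites were also found in other chains. In chain 4, from 17544043 to 17629722, with all 4 pools, 3 of 7 sites were higher at dox 100 (1 with library totals), and the mean level was 4.08 at dox 100 and 0.04 at dox 0. In chain 10, from 71273423 to 71332787, 3 of 4 were higher and 1 lower, and 2 were higher with library totals. Chain 3, from 10529885 to 10643091, had 7 sites with RNA in both dox 100 libraries next to the site at 10643091 with none, and 1 of its 8 was called higher, that at 10626618. Chain 8 had 2 of 4 higher (1 with library totals), chain 14 had 2 higher and 2 lower (0 and 2 with library totals), and chain 12 had 1 higher and 2 lower.

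No site was called higher in chains 1, 2, 6, 9, 11 and 15, of which all but chain 6 had a mean above the pool mean at dox 0. Each has 4 or 5 sites. With 10.9% of all sites called higher, nothing is read from the lack of higher calls. Chain 2 near 7.4 Mb, 5 sites of pools B and D, averaged −0.99 at dox 100 and 1.52 at dox 0, with 3 lower calls. Chains 1, 9, 11 and 15 had 1, 2, 3 and 3 lower sites (4, 2, 3 and 5 with library totals). Chain 6, at 44824553 to 44987522, had 2 of 5 lower, a mean of −1.26 at dox 100 and −0.34 at dox 0, and lies 603 kb before chain 7.

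**Figure D5:**
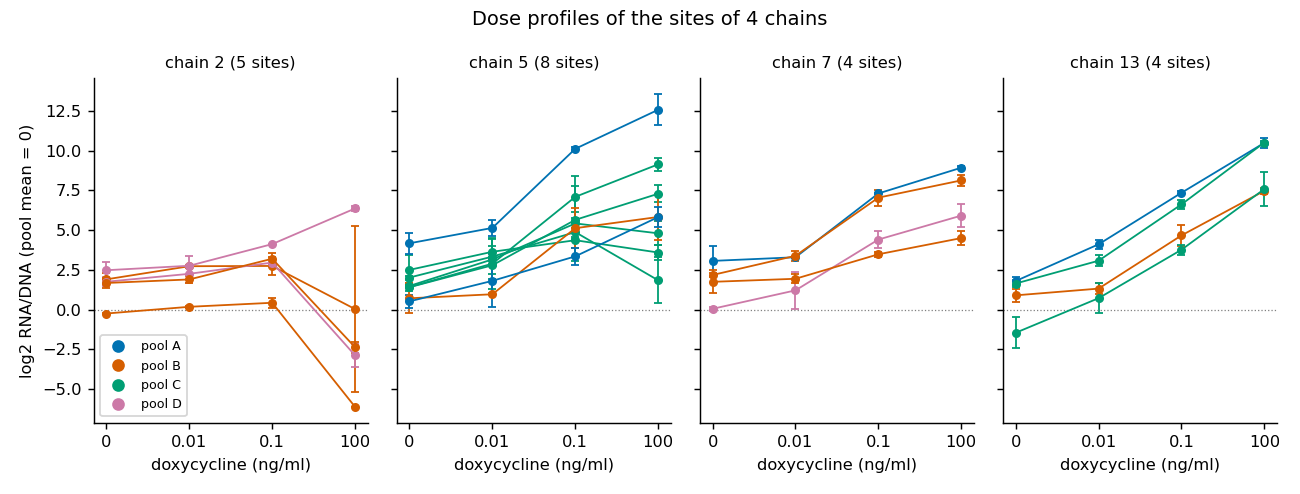
Levels (y axis, log2 RNA/DNA relative to the pool mean) by dox dose in ng/ml (x axis, steps not to scale) for the sites of 4 chains, 1 line per site coloured by pool, bars the SD of 2 cultures. Lines of chain 13 climb together to 7.47 to 10.50 at 100 ng/ml, whereas in chain 2 a pool D site reaches 6.36 and the other 4 end between −6.11 and 0.04.

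Sites less than 1 kb apart formed 15 pairs. In 8 of them both sites had RNA in both dox 100 libraries, and their levels at dox 100 differed by 0.0071 to 3.16, with a median of 1.51. In 4 others at least 1 site had no RNA at dox 100, so that its level is set by DNA depth. Besides the pair 46 bp apart, sites at 37200484 (pool B) and 37201235 (pool A) had levels of 5.83 and 5.82 at dox 100 and 0.72 and 0.52 at dox 0. The sites at 17544043 (pool D) and 17544624 (pool C) had 5.85 and 5.47 at dox 100 and −0.14 and 0.75 at dox 0. In 2 pairs the positions were 1 bp apart on opposite strands. That at 3558798 (pool A) and 3558799 (pool B) stood at −0.24 and 1.78 at dox 100 and 0.07 and 0.73 at dox 0, and that at 22876574 (pool D) and 22876575 (pool C) at −0.13 and −2.15 at dox 100 and −0.92 and −1.11 at dox 0.

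A pair of chain 2, 11 bp apart on opposite strands, had RNA at dox 100 at 1 site and none at the other. The pool D site at 7443559 (plus) had 683 and 625 RNA counts at dox 100, against 975 and 1154 at dox 0, and the pool B site at 7443570 (minus) had 0 and 0 at dox 100, against 1038 and 1085 at dox 0. At 0.01 and 0.1 ng/ml they were still alike, with levels of 2.76 and 1.90 at the first and 4.12 and 3.20 at the second dose. At dox 100 they were 6.36 and −2.36, and the second value is a limit of depth. The pool B site was at the floor and called lower (edgeR adjusted p = 1.1e-05), while the change of the pool D site did not pass (1.06 ± 0.53, adjusted p = 0.104); the difference itself was not tested, because each pool was fitted on its own. DNA counts at dox 100 were 188 and 313 for the pool D site and 159 and 284 for the pool B site, so DNA depth was alike. RNA depth was not, with library totals at dox 100 of 1293924 and 1257909 in pool D and 729552 and 987409 in pool B, and the part of this in the difference was not tested. Strand, pool and clone differ between the sites and cannot be told apart.

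The correlation between sites under 10 kb apart was higher at higher doses. The SD over the 450 sites also grew, from 2.23 at dox 0 to 4.02 at 100 ng/ml. A higher r therefore does not mean that neighbours differed less in level. Pairs under 10 kb apart had a Pearson r of 0.272 at dox 0, 0.341 at 0.01, 0.465 at 0.1 and 0.578 at 100 ng/ml (62 pairs of 91 sites). For the 47 such pairs from different pools, which share no library, it was 0.392, 0.418, 0.626 and 0.671. At 10 to 100 kb (325 pairs) r was 0.474 at 100 ng/ml and 0.310 at dox 0, and the 234 of them from different pools had 0.292 at dox 0, 0.395 at 0.01, 0.443 at 0.1 and 0.416 at 100 ng/ml. At dox 0 the r of pairs under 10 kb was thus no higher than that at 10 to 100 kb when all pools were taken. At 100 kb to 1 Mb (2249 pairs) the order was the other way, with 0.108 at 100 ng/ml and 0.213 at dox 0. Pairs share sites, so these values are descriptions.

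Strand means over the pools lay close together, while single pools differed in either direction. The 226 sites on the plus and the 224 on the minus strand averaged 0.50 ± 0.32 and 0.45 ± 0.16 at dox 100, and 0.24 ± 0.24 and 0.18 ± 0.10 at dox 0 (SD, n = 4 pools). In pool C plus and minus sites stood at 0.93 and 0.44 at dox 100 and at 0.75 and 0.027 at 0.1 ng/ml, and in pool D at 0.25 and 0.31 at dox 100 and at 0.32 and 0.67 at 0.1 ng/ml. The 3 sites just inside the DNA minimum, all in pool C, were at 31557256, 5452192 and 53723629 with lowest DNA counts of 10, 12 and 12. Their levels were 3.16, 0.05 and 6.97 at dox 100 and 0.02, 1.82 and 2.91 at dox 0.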

How the data were processed

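The 64 barcode libraries (4 pools, 4 doses, 2 replicates, RNA and DNA) come as read counts per barcode that the authors deposited without normalization, per the file headers, with positions from 16 mapping libraries. The submitters' processing notes list Bowtie2 2.0 and mm9. The counter and filters are not given in the sources used here. No column of sample values (0) was left unused. A site was dropped when 1 of its 8 DNA libraries had under 10 counts. Per pool, edgeR 4.0.16 (R 4.3.3) fitted 1 quasi-likelihood model to 16 libraries (assay, dose, interaction; TMM within assay), with Benjamini-Hochberg adjustment over all 10785 sites at 0.05. The test was tried on simulated data. Levels used library totals and a pseudocount of 1 (Python 3.11.15, pandas 2.3.3, scipy 1.17.1). DESeq2 1.42.0 was an alternative. The members and lists were chosen with earlier results of these data known. Named sites are the 10 highest at dox 100 with RNA in both libraries, the 5 highest and lowest at dox 0, the 5 largest calls per direction at dox 100 and 0.1, the 5 largest increases at 100 against 0.1, the 10 adding most to the gap, the sites at the DNA minimum, pairs under 1 kb and chains; others were chosen after their values were seen. Per the labels' protocols, equal replicate numbers mark 1 culture spread over the doses, so the replicate number pairs the libraries; differences between replicates did not correlate between doses, however (r −0.051 to 0.046 for DNA and −0.054 to 0.041 for RNA, 24 values each).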

Additional observations from a re-analysis of the deposited data

How the results depend on the processing

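With a replicate block, so that libraries were paired by culture, 258 of the 450 sites were called at dox 100 against 0, 106 at 0.1 against 0, 0 at 0.01 against 0 and 124 at 100 against 0.1, where the fit without it called 272, 116, 0 and 145. Calls at 0.1 against 0 numbered 197 with the DESeq2 Wald test and 75 to 149 with 1 library left out. At 0.01 against 0 they numbered 4 with DESeq2 and 1 with adjustment within pools. Calls at dox 100 against 0 and at 0.1 against 0 also moved when 1 replicate of a dose was left out. That drops both its RNA and its DNA library and leaves 1 culture at that dose. The chromosome offset at 0.1 ng/ml was 0.617 with a pseudocount of 0.1, 0.340 with a DNA minimum of 100, 0.603 by medians, 0.658 by 1 Mb blocks, and 0.369 to 0.619 with 1 replicate left out. At dox 100 it was 0.721 by medians and 0.147 without the window at 45 to 50 Mb. Among sites with RNA in both libraries of the dose it was 0.204 at dox 100 and 0.193 at dox 0. Without both high windows it was −0.0028 at dox 0, −0.0087 at 0.01, 0.038 at 0.1 and −0.062 at 100 ng/ml, an alternative added after seeing the data. The share of sites with RNA at dox 100 was 36.2% when both libraries were asked for, and the RNA share at 0.1 ng/ml was 4.08% without the site with most RNA. Over 11 alternatives, changes at 100 against 0.1 ranged from −0.12 to 10.10 at 17562820 (pool D) and from −0.19 to 9.27 at 49800231 (pool B). Both lowest values came without dox 100 replicate 1, whose RNA library held all their RNA at that dose. Of 511 recomputed changes of named sites, 478 kept their call, 31 lost it and 2 turned. The causes of the shifts were not tested. Depth limits every level at dox 100 where RNA is 0.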
